A study of Mus musculus with 2 samples.

Results

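Transcripts of the oxysterol receptor Gpr183 and of 4 enzymes that make or break down its ligands, Ch25h, Cyp7b1, Hsd3b7 and Cyp27a1, were followed across immune cell classes of the mouse small intestine. These 5 genes were chosen by symbol from the 32285 genes of the deposited count tables. GPR183, also called EBI2, is a G protein-coupled receptor that draws lymphocytes and dendritic cells up gradients of dihydroxylated cholesterol. CH25H, an endoplasmic reticulum hydroxylase, adds a hydroxyl group to the cholesterol side chain, and CYP7B1 then hydroxylates the ring to give the most potent known GPR183 ligand. HSD3B7 oxidises that ligand to an inactive form, and CYP27A1, a mitochondrial enzyme, hydroxylates a different side chain position and opens another branch of oxysterols and bile acids. In gut and lymphoid tissue the receptor is known for placing B cells, T cells, dendritic cells and innate lymphoid cells, and stromal cells are a known source of the ligand.

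The cells came from the small intestine lamina propria, the connective tissue under the gut epithelium, of female littermates aged 10 to 12 weeks. One pool, labelled CD4-Cre, carried floxed Aster-A alleles (Aster-A F/F) together with CD4-Cre, and the other, labelled F/F, carried the floxed alleles alone. Aster-A is a protein that carries cholesterol between membranes and is encoded by Gramd1a. CD4-Cre deletes floxed segments in developing αβ T cells in the thymus, so descendants of both the CD4 and the CD8 lineage are targeted. Deletion in other cells was not tested. All mice were fasted for 16 h and then had olive oil by gavage for 2 h, so no unfed or water-gavaged group stands beside them. Live CD45+ cells without EPCAM, Ter119 or CD31 were sorted, 100000 per mouse, and 3 mice per genotype were pooled into 1 droplet library. With 1 library per genotype no test between genotypes was possible, and every interval below is a 95% interval of counting error that leaves out variation between mice.

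The CD4-Cre library kept 12526 cells with a median of 14031 unique molecular identifiers (UMIs, single captured transcripts), and the F/F library kept 12594 cells with a median of 15319.5. The libraries shared 47 barcodes among kept cells, 0.375% of the CD4-Cre and 0.373% of the F/F cells. Clusters were named "X-like" from marker transcripts, and the 5 genes took no part in forming them. Plasma-like cells made up 58.4% of the CD4-Cre and 70.0% of the F/F cells. Cd4 was detected in 70.5% to 82.5% of the cells of each CD4 T-like cluster and Cd8b1 in 76.6% of CD8 T-like cells. Stromal-like cells, which a CD45 sort should remove, numbered 12 in the CD4-Cre and 3 in the F/F library. Gramd1a had 42.9 CPM (UMIs per 1e6 UMIs of the class) in CD4-Cre and 58.5 CPM in F/F CD4 T-like cells, a ratio of 0.734 (0.587 to 0.916). The sources used here do not name the floxed exons, and 3′ tags outside a deleted segment check nothing.

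On mm10, Gpr183 (ENSMUSG00000051212) lies at chr14:121952551-121965195 on the minus strand, within the longer gene Ubac2 on the plus strand, without exon overlap. Ch25h (ENSMUSG00000050370) lies at chr19:34473778-34475164, Cyp7b1 (ENSMUSG00000039519) at chr3:18071950-18243338, Hsd3b7 (ENSMUSG00000042289) at chr7:127800604-127803802 and Cyp27a1 (ENSMUSG00000026170) at chr1:74713574-74737892. Exons of Hsd3b7 overlap those of Gm49388 and 9430064I24Rik, neither of which has a row in the count tables, and an exon of Ch25h overlaps Gm26902, which had 4 UMIs in CD4-Cre and 3 UMIs in F/F cells. Ubac2 had levels in an order unlike that of Gpr183, with 433 CPM in CD4-Cre and 386 CPM in F/F CD8 T-like cells but 169 and 154 CPM in ILC3-like cells of the CD4-Cre and F/F libraries.

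The 250 bases before the RefSeq transcription start (GRCm38.p6, gene strand, 5′ to 3′) are shown for the receptor and for the 2 enzymes with a shared class pattern, Hsd3b7 and Cyp27a1. Capitals mark matches on either strand to AGGTCA, a half-site bound by nuclear receptors, to GGAAGT, a core bound by ETS factors, or to TGACGTCA, the cyclic AMP response element. The sequences lie at chr14:121965194-121965443 on the minus strand, chr7:127800359-127800608 on the plus strand and chr1:74713285-74713534 on the plus strand.
Gpr183: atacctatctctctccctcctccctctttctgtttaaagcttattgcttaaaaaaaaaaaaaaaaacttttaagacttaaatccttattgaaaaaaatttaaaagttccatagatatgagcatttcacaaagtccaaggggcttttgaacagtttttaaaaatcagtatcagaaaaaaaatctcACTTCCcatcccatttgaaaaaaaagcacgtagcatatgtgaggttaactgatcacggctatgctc
Hsd3b7: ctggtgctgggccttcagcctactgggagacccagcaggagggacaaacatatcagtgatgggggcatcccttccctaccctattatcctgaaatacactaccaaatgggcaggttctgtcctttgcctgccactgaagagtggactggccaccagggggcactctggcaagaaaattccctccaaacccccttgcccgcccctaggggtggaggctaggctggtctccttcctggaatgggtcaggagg
Cyp27a1: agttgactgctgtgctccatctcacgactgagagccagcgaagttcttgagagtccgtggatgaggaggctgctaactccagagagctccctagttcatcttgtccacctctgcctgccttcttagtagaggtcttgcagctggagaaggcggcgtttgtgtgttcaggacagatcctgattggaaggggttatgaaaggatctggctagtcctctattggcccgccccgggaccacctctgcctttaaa
The Gpr183 window is poor in G and C, at 32.0%, against 58.0% for Hsd3b7, 54.0% for Cyp27a1 and a median of 52.4% over 32851 promoters. It holds 1 match, ACTTCC on the gene strand, which is GGAAGT on the other strand and starts 66 bases before the start site. Neither enzyme window holds any of the 3 motifs. Of all 32851 windows, 14.0% hold AGGTCA, 19.7% GGAAGT and 1.55% TGACGTCA, so the single match is a common one. No promoter of Cyp7b1 is shown.

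Gpr183 had 7644 UMIs in kept cells. In both libraries its levels were high in type 17 lymphocytes and in the second class of conventional dendritic cells. The comparison sets 1 cluster of CD4 T-like cells beside whole classes. The Il17a-led CD4 T-like cluster, whose leading genes also hold Il23r, the IL-23 receptor gene of type 17 helper cells, had 400.0 CPM (328 to 483) in CD4-Cre and 358 CPM (298 to 427) in F/F. γδ T-like cells, led by Cd163l1, Trdc and Il23r, had 382 CPM (302 to 478) in CD4-Cre and 276 CPM (195 to 379) in F/F. The intervals of this cluster and this class overlapped in both libraries, so their order is not set by the counts.

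cDC2-like cells, named from Cd209a and Mgl2, had 195 CPM (164 to 231) in CD4-Cre, below the γδ T-like interval, and 252 CPM (213 to 294) in F/F, within it. Here 1 cell held 16 of the 139 CD4-Cre UMIs and 1 cell held 30 of the 155 F/F UMIs. ILC3-like cells, innate lymphocytes of the type 17 kind, had 169 CPM (138 to 206) in CD4-Cre and 203 CPM (166 to 246) in F/F. cDC2-like and ILC3-like levels overlapped in both libraries, and each stood above macrophage-like cells, which had 45.5 CPM in CD4-Cre and 46.4 CPM in F/F. CD8 T-like cells reached this range in CD4-Cre only. They had 148 CPM (129 to 169) in CD4-Cre, which overlapped both classes, and 58.1 CPM (40.7 to 80.4) in F/F. A finer CD8 T-like cluster with Gzmk, described below, had 221 CPM (191 to 254) in CD4-Cre and 92.1 CPM (59.0 to 137) in F/F. On the log2 scale, ILC3-like cells were 1.90 (1.48 to 2.32) above macrophage-like cells in CD4-Cre and 2.13 (1.74 to 2.51) in F/F. The dendritic cell classes were further apart, with cDC2-like cells 2.87 (2.52 to 3.22) above cDC1-like cells in CD4-Cre and 3.15 (2.79 to 3.50) in F/F on the same scale.

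ILC2-like cells, with too few cells for a ratio, took a different place in each library. They had 85.9 CPM (53.9 to 130.1) from 22 UMIs in 66 CD4-Cre cells and 212 CPM (150.3 to 292) from 38 UMIs in 40 F/F cells, which in F/F is in the range of cDC2-like and ILC3-like cells. B-like cells, also under 100 cells in F/F, had 38.6 CPM (32.0 to 46.2) in CD4-Cre and 75.0 CPM (58.1 to 95.2) in F/F. The intervals did not overlap in either class, but 1 cell held 5 of the CD4-Cre and 9 of the F/F UMIs in ILC2-like cells, and 11 of the CD4-Cre and 14 of the F/F UMIs in B-like cells. Median depth also differed in B-like cells, at 14320 UMIs in CD4-Cre and 8119 UMIs in F/F, and its part in the result was not tested.

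**Figure D1:**
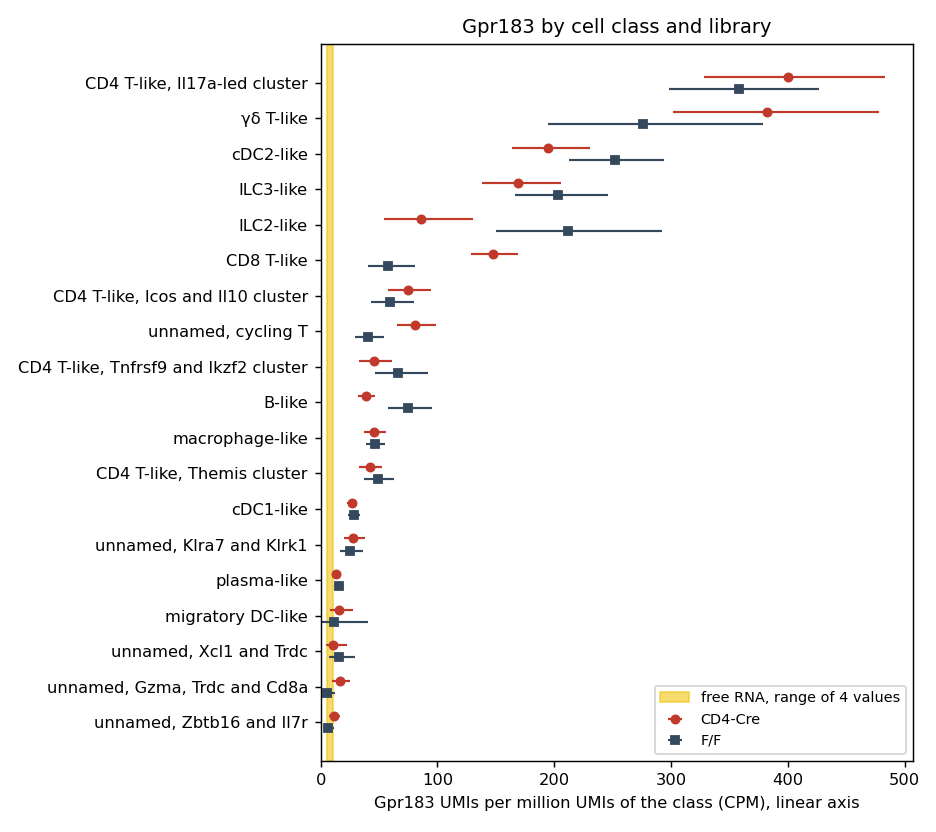
Gpr183 level (CPM, linear axis) in each class or cluster, ordered by the level over both libraries, with CD4-Cre as red circles above F/F as dark squares and exact Poisson 95% intervals as lines. The yellow band spans the 4 free RNA values, the lowest 5.39 CPM, and the Il17a-led cluster lies furthest from it at 400.0 CPM in CD4-Cre and 358 CPM in F/F.

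At the low end, Gpr183 was near the level of free RNA, the transcripts found in droplets without a cell. Free RNA had 5.39 CPM (2.33 to 10.6) in CD4-Cre, from 8 UMIs, and an interval of 6.18 to 18.2 CPM in F/F, from 15 UMIs, over barcodes with 10 to 100 UMIs, and 10.1 CPM and 10.9 CPM over barcodes with 150 to 350 UMIs. An unnamed lymphocyte cluster led by Zbtb16 and Il7r had 11.3 CPM (7.58 to 16.3) in CD4-Cre and 6.06 CPM (2.62 to 11.9) in F/F. Further unnamed clusters also lay low, the Gzma, Trdc and Cd8a cluster at 16.3 CPM in CD4-Cre and 5.15 CPM in F/F and the Xcl1 and Trdc cluster at 10.8 CPM and 15.6 CPM. The Klra7 and Klrk1 cluster, with natural killer receptor genes, had 27.8 CPM in CD4-Cre and 25.2 CPM in F/F. Migratory DC-like cells, marked by Ccr7 and Ccl22, had 15.4 CPM (7.69 to 27.6) in CD4-Cre and 11.1 CPM (1.35 to 40.3) in F/F, below the cDC2-like level in both libraries.

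Plasma-like cells, the most numerous class, held 57.5% of all Gpr183 UMIs, at a level of 13.4 CPM in CD4-Cre and 15.6 CPM in F/F. Plasma cells give most of their UMIs to immunoglobulin, which lowers every other gene's CPM. With immunoglobulin, mitochondrial and ribosomal protein genes taken out of the total, plasma-like cells had 41.7 CPM in CD4-Cre and 47.1 CPM in F/F, against 24.5 CPM and 25.5 CPM in free RNA of the same libraries, over barcodes with 150 to 350 UMIs. The 7 plasma-like clusters were not alike. One cluster, with 1545 CD4-Cre and 1881 F/F cells, reached 23.2 CPM in CD4-Cre and 28.0 CPM in F/F, while another, with 174 and 217 cells and acinar transcripts among its leading genes, had 3.48 CPM in CD4-Cre and 4.72 CPM in F/F.

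Shares of cells gave the same leading classes at equal depth. After every cell was thinned to 1500 UMIs, Gpr183 was seen in 41.3% (30.1 to 53.3) of Il17a-led cluster cells in CD4-Cre and 36.7% (26.8 to 47.5) in F/F. The thinned share was 31.6% in CD4-Cre and 29.5% in F/F for ILC3-like cells, 31.0% and 31.4% for γδ T-like cells, and 24.7% and 16.7% for cDC2-like cells. CD8 T-like cells came near the cDC2-like share in CD4-Cre, at 19.8%, but had 6.34% in F/F. In the Zbtb16 and Il7r cluster, taken as the background class, it was 1.48% in CD4-Cre and 1.10% in F/F. Without thinning, the Il17a-led cluster stood at 56.0% in CD4-Cre and 57.1% in F/F, at median depths of 3276 and 3768 UMIs, and the Zbtb16 and Il7r cluster at 3.46% and 1.89%, at 3320 and 3524 UMIs. Plasma-like cells had 15.5% in CD4-Cre and 17.4% in F/F before thinning, at median depths of 17415 and 17506 UMIs, but 2.10% and 2.54% after it.

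Among CD4 T-like cells the receptor was uneven. Outside the Il17a-led cluster, the Icos and Il10 cluster had 74.5 CPM (57.5 to 94.9) in CD4-Cre and 59.4 CPM (42.8 to 80.3) in F/F. The Tnfrsf9 and Ikzf2 cluster had 45.7 CPM in CD4-Cre and 66.3 CPM in F/F, and the Themis cluster had 42.1 CPM in CD4-Cre and 49.0 CPM in F/F. Foxp3, the regulatory T cell factor, was detected in 50.7% of the Icos and Il10 cluster and 50.4% of the Tnfrsf9 and Ikzf2 cluster. Split by a Foxp3 UMI instead, CD4 T-like cells with one had 57.1 CPM of Gpr183 (43.2 to 73.9) in CD4-Cre and 78.3 CPM (59.8 to 101) in F/F. Cells without one had 81.9 CPM (71.7 to 93.1) in CD4-Cre and 98.7 CPM (85.6 to 113) in F/F. The cells without one include most of the Il17a-led cluster, and the order rests on that cluster. Without it, in a comparison added after the values were seen, cells with a Foxp3 UMI had 57.6 CPM (43.6 to 74.6) in CD4-Cre and 59.0 CPM (42.9 to 79.3) in F/F. Cells without a Foxp3 UMI then had 48.4 CPM (40.3 to 57.7) in CD4-Cre and 54.4 CPM (43.9 to 66.6) in F/F. The intervals overlapped with and without the Il17a-led cluster, so no order by Foxp3 is read from these counts.

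The Aster-A comparison between pools was made in the 5 named classes with at least 100 cells in each library, over gene and class pairs with at least 20 UMIs. A pair was called when the interval of its ratio, CD4-Cre over F/F, stayed at least 0.2 from 0 on the log2 scale. Of 25 pairs 11 had enough UMIs, 1 was called higher in CD4-Cre and 0 were called lower. By the same rule, among all genes, 3.49% were called higher and 2.44% lower in CD8 T-like cells, 1.53% and 1.89% in CD4 T-like cells, and 2.00% and 2.61% in macrophage-like cells. The background was 1.08% higher and 2.05% lower in cDC1-like cells and 3.17% higher and 6.59% lower in plasma-like cells. No statistical test stands behind a call, since each pool is 1 sample.

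The called pair was Gpr183 in CD8 T-like cells. It had 148 CPM (129 to 169) from 227 UMIs in 359 CD4-Cre cells and 58.1 CPM (40.7 to 80.4) from 36 UMIs in 142 F/F cells, a ratio of 2.55 (1.79 to 3.73). Cells with a UMI made up 35.1% (30.2 to 40.3) in CD4-Cre and 12.7% (7.69 to 19.3) in F/F, and after thinning 19.8% (15.8 to 24.3) and 6.34% (2.94 to 11.7). Median depth was close, at 4012 UMIs in CD4-Cre and 4124 UMIs in F/F, and the median ratio of all well-counted genes in this class was 1.08. Ubac2, the gene around Gpr183, had a ratio of 1.12 (0.966 to 1.31) in the same cells. Without the 5 cells of each library with the most Gpr183 UMIs the ratio was 4.77 (2.86 to 8.52). That removal took 5 of 18 F/F cells with a UMI but 5 of 126 in CD4-Cre, so it lowered F/F more. The F/F level thus rests on few cells, and the higher ratio is not read as a larger difference.

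At a finer clustering, CD8 T-like cells split into a cluster with Gzmk and Ctla2a among its leading genes and a cluster with Cd160, while Ccl5 and Themis were among the leading genes of both. Gzmk encodes a granzyme of effector and memory CD8 cells. Gpr183 had 221 CPM (191 to 254) in CD4-Cre and 92.1 CPM (59.0 to 137) in F/F in the Gzmk cluster. In the Cd160 cluster it had 50.8 CPM (35.0 to 71.4) in CD4-Cre and 23.2 CPM (10.0 to 45.8) in F/F. The intervals of the 2 libraries were apart in the Gzmk cluster and overlapped in the Cd160 cluster. The clusters also had other sizes, since the Gzmk cluster held 59.9% of the CD8 T-like cells in CD4-Cre and 41.2% in F/F. Over both clusters the ratio was 2.81 (1.93 to 4.20). With both libraries weighted to the same cluster sizes, it was 2.36, a comparison added after the values were seen.

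**Figure D2:**
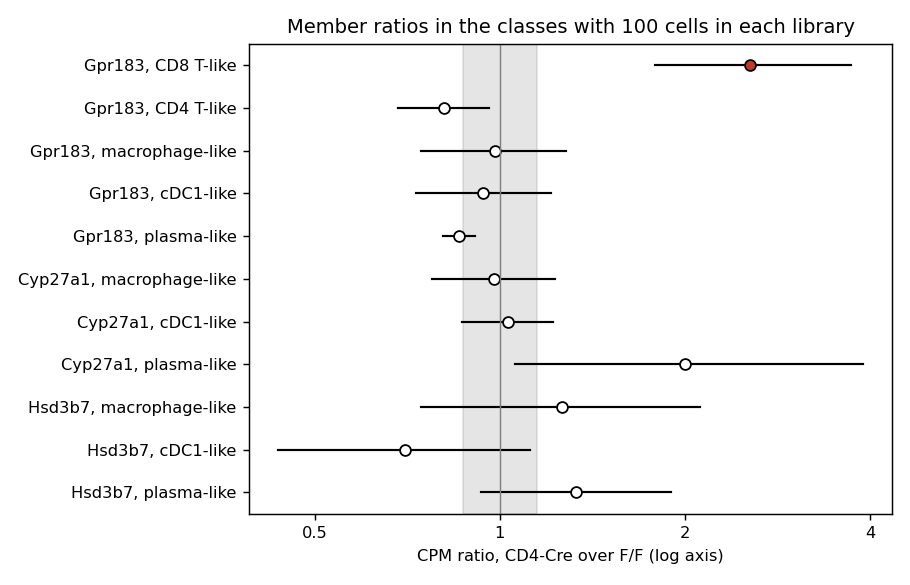
CPM ratio, CD4-Cre over F/F (log axis), for the 11 gene and class pairs with at least 20 UMIs, with exact 95% intervals as lines. The grey band is within 0.2 of 0 on the log2 scale, and the filled red point, Gpr183 in CD8 T-like cells at 2.55, is the one pair whose interval lies beyond it.

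In CD4 T-like cells Gpr183 had 75.5 CPM (67.0 to 84.7) in CD4-Cre and 93.2 CPM (82.2 to 105) in F/F, a ratio of 0.810 (0.683 to 0.961) that was not called. The Tnfrsf9 and Ikzf2 cluster of this class carried 3 regulatory T cell markers and 2 ILC2 markers, Areg and Klrg1, among its 10 leading genes, so the clusters are also given apart. The ratio was 0.859 (0.602 to 1.23) in the Themis cluster, 1.25 (0.838 to 1.90) in the Icos and Il10 cluster and 0.689 (0.432 to 1.10) in the Tnfrsf9 and Ikzf2 cluster. The Il17a-led cluster, with the highest level, held 75 of 1128 CD4 T-like cells (6.65%, 5.27 to 8.26) in CD4-Cre and 91 of 777 (11.7%, 9.54 to 14.2) in F/F. With equal cluster weights in both libraries the ratio over CD4 T-like cells was 0.998, a value added after the data were seen. Il17a, which leads that cluster, had 1237 CPM in CD4-Cre and 1699 CPM in F/F within it, so its size and the level of a gene that defines it moved together.

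**Figure D3:**
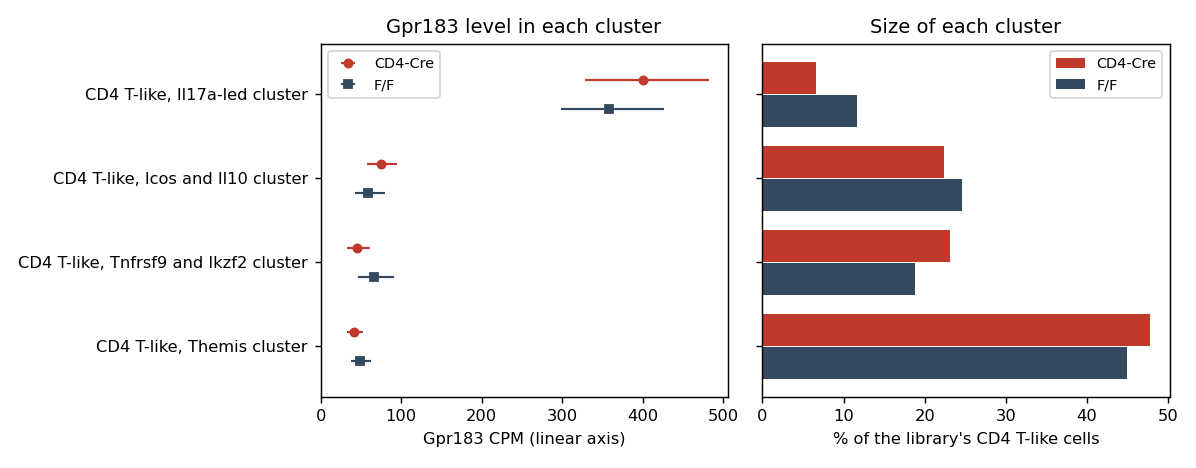
Left, Gpr183 level (CPM, linear axis) in the 4 CD4 T-like clusters, with exact 95% intervals; right, each cluster's share of the library's CD4 T-like cells in percent, with CD4-Cre in red above F/F in dark blue. The Il17a-led cluster has the highest level in both libraries and 6.65% of the cells in CD4-Cre against 11.7% in F/F.

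In the remaining tested classes no Gpr183 ratio was called. Among macrophage-like cells it was 0.980 (0.745 to 1.28), and among cDC1-like cells 0.939 (0.730 to 1.21). In plasma-like cells it was 0.857 (0.807 to 0.910), below 1 but not past the bound, with Ubac2 at 0.923 (0.891 to 0.958) in the same cells. These intervals do not show that the pools were alike. Unnamed clusters were not among these classes. In the Gzma, Trdc and Cd8a cluster the Gpr183 log2 ratio was 1.67, from 19 UMIs in CD4-Cre and 5 UMIs in F/F, against 1.35 in CD8 T-like cells. It was 0.90 in the Zbtb16 and Il7r cluster, from 29 and 8 UMIs, and 0.15 in the Klra7 and Klrk1 cluster. In the unnamed cluster with immunoglobulin RNA and T cell genes it was -0.21. None of these ratios was called.

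Ch25h, which starts ligand synthesis, was almost uncounted. All kept cells held 7 UMIs in CD4-Cre and 5 UMIs in F/F. Of the 12 UMIs, 8 were in the macrophage-like cluster with Mrc1, a marker of tissue-resident macrophages, as 5 UMIs in 4 CD4-Cre cells and 3 UMIs in 3 F/F cells. That gave 5.65 CPM (1.84 to 13.2) in CD4-Cre and 1.94 CPM (0.401 to 5.68) in F/F. The other 4 UMIs were in plasma-like cells, 2 in each library. Dendritic, T, innate lymphoid and stromal-like cells had 0 Ch25h UMIs. For cDC1-like cells a count of 0 allows up to 0.580 CPM in CD4-Cre and 0.710 CPM in F/F, but for the few stromal-like cells it allows up to 47.0 CPM and 148 CPM, so Ch25h in stromal cells was not measurable here. The limit was 4.21 CPM in CD4-Cre and 4.87 CPM in F/F for cDC2-like cells, 4.20 CPM and 16.7 CPM for migratory DC-like cells, and 14.9 CPM and 21.8 CPM for γδ T-like cells. These limits lie above the F/F level of the Mrc1 cluster, so a like level in these cells could have been missed.

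Cyp7b1, the enzyme that completes the ligand, was found mainly in stromal-like cells and in dendritic cells. Of 89 UMIs, 42 were in the 15 stromal-like cells, as 34 UMIs in 7 of 12 CD4-Cre cells and 8 UMIs in 2 of 3 F/F cells. The stromal-like level was 533 CPM (369 to 745) in CD4-Cre and 395 CPM (171 to 779) in F/F. These cells were named from Dcn, Col3a1 and other matrix genes and passed the sort in small numbers.

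Among immune cells Cyp7b1 stood out in cDC2-like cells, with 11.2 CPM (4.85 to 22.1) from 8 UMIs in 5 CD4-Cre cells and 9.74 CPM (3.57 to 21.2) from 6 UMIs in 3 F/F cells. Migratory DC-like cells had 11.2 CPM (4.84 to 22.1) from 8 UMIs in 3 of 42 CD4-Cre cells and 0 UMIs in 13 F/F cells, where 0 allows up to 16.7 CPM. cDC1-like cells had 0 UMIs in CD4-Cre and 0.946 CPM (0.258 to 2.42) in F/F, below the cDC2-like interval in both libraries. CD4 T-like, CD8 T-like, γδ T-like and ILC3-like cells had no Cyp7b1 UMI. For γδ T-like cells a count of 0 allows up to 14.9 CPM in CD4-Cre and 21.8 CPM in F/F, above the cDC2-like level, so such a level could have been missed. For ILC3-like cells it allows 4.94 CPM and 5.91 CPM, below the cDC2-like levels. These limits reach only the lower part of the cDC2-like intervals. In free RNA Cyp7b1 had 0 UMIs over barcodes with 10 to 100 UMIs, and 0.145 CPM in CD4-Cre and 0.204 CPM in F/F over barcodes with 150 to 350 UMIs. Of the cDC2-like cells with a Cyp7b1 UMI, 4 of 5 in CD4-Cre and 3 of 3 in F/F also had a Gpr183 UMI, as did 38 of all 77 CD4-Cre and 33 of all 61 F/F cDC2-like cells. These are too few cells to set the co-detection apart from counting error, and the part of depth in it was not tested.

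Over all kept cells Cyp7b1 had 0.316 CPM in CD4-Cre and 0.167 CPM in F/F, a ratio of 1.89 (1.21 to 3.01) past the bound, as were 11.4% of all genes in that direction and 4.52% in the other. Without the stromal-like cells, 12 in CD4-Cre and 3 in F/F, it had 22 UMIs in CD4-Cre and 25 UMIs in F/F and a ratio of 0.983 (0.528 to 1.82).

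Hsd3b7, which inactivates the ligand, was highest in macrophage-like and cDC1-like cells among the classes with at least 20 UMIs. Macrophage-like cells had 14.5 CPM (9.80 to 20.7) from 30 UMIs in CD4-Cre and 11.5 CPM (7.98 to 16.1) from 34 UMIs in F/F. cDC1-like cells had 6.95 CPM (4.87 to 9.63) from 36 UMIs in CD4-Cre and 9.94 CPM (7.16 to 13.4) from 42 UMIs in F/F. On the log2 scale macrophage-like cells were 1.06 (0.31 to 1.80) above cDC1-like cells in CD4-Cre and 0.21 (-0.48 to 0.90) in F/F, so the order of the classes held beyond counting error only in CD4-Cre. cDC2-like cells had 4.21 CPM from 3 UMIs in CD4-Cre and 6.49 CPM from 4 UMIs in F/F, with intervals that reached both classes. Migratory DC-like cells had 1.40 CPM (0.0355 to 7.81) from 1 UMI in CD4-Cre and 16.7 CPM (3.45 to 48.9) from 3 UMIs in F/F. Stromal-like cells had 15.7 CPM (0.397 to 87.4) in CD4-Cre and 49.4 CPM (1.25 to 275) in F/F, from 1 UMI in each library. The place of these 2 classes in the order is not set by the counts.

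CD4 T-like and plasma-like cells had little Hsd3b7. CD4 T-like cells had 1.30 CPM (0.422 to 3.04) in CD4-Cre and 0.357 CPM (0.00904 to 1.99) in F/F, near the free RNA levels of 1.30 CPM and 1.02 CPM over barcodes with 150 to 350 UMIs. Plasma-like cells had 0.507 CPM (0.394 to 0.642) in CD4-Cre and 0.381 CPM (0.293 to 0.488) in F/F. In γδ T-like cells 0 UMIs allow up to 14.9 CPM in CD4-Cre and 21.8 CPM in F/F, so a macrophage-like level could have been missed. ILC2-like cells had 0 UMIs in CD4-Cre and 5.59 CPM (0.142 to 31.1) from 1 UMI in F/F, which does not set their level. Between the pools the Hsd3b7 ratio was 0.700 (0.436 to 1.12) for cDC1-like cells, 1.26 (0.745 to 2.12) for macrophage-like cells and 1.33 (0.931 to 1.90) in plasma-like cells, and each interval included 1.

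Cyp27a1, which makes side chain oxysterols in mitochondria, was found mainly in macrophage-like and cDC1-like cells, with a few UMIs in stromal-like cells. Of its 1142 UMIs, 49.0% were in cDC1-like cells. cDC1-like cells had 60.3 CPM (53.8 to 67.3) in CD4-Cre and 58.7 CPM (51.6 to 66.4) in F/F. Macrophage-like cells had 62.0 CPM (51.7 to 73.7) in CD4-Cre and 63.4 CPM (54.6 to 73.1) in F/F. The classes were 0.04 (-0.27 to 0.34) apart in CD4-Cre and 0.11 (-0.17 to 0.39) apart in F/F on the log2 scale, macrophage-like over cDC1-like. cDC2-like cells had 28.1 CPM (17.2 to 43.4) in CD4-Cre and 24.3 CPM (13.6 to 40.1) in F/F, below both classes, and migratory DC-like cells had 7.01 CPM (2.27 to 16.3) and 5.57 CPM (0.141 to 31.0). Stromal-like cells had 94.1 CPM (34.5 to 205) from 6 UMIs in CD4-Cre and 98.8 CPM (12.0 to 357) from 2 UMIs in F/F, with intervals that hold the macrophage-like level.

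Within macrophage-like cells Cyp27a1 was higher in the Mrc1 cluster, at 85.9 CPM (67.7 to 108) in CD4-Cre and 77.8 CPM (64.5 to 93.0) in F/F, than in the Ccr2 and Tgfbi cluster, which carries genes of monocyte-derived cells, at 44.0 CPM (32.9 to 57.7) in CD4-Cre and 47.6 CPM (36.9 to 60.5) in F/F. The intervals of these clusters did not overlap in either library. At the finer clustering the step was less clear in F/F. There the Selenop and Mrc1 cluster had 102 CPM (78.6 to 131) in CD4-Cre and 72.8 CPM (58.2 to 90.1) in F/F. The Ccr2 and Tgfbi cluster had 42.2 CPM (30.5 to 56.8) in CD4-Cre and 60.1 CPM (48.2 to 74.1) in F/F, so the intervals were apart in CD4-Cre and overlapped in F/F. At the first clustering Hsd3b7 showed no such step, with 15.8 CPM in CD4-Cre and 12.3 CPM in F/F in the Mrc1 cluster and 13.5 CPM and 10.7 CPM in the Ccr2 cluster. Neither did Gpr183, at 43.0 CPM in CD4-Cre and 42.8 CPM in F/F in the Mrc1 cluster and 47.4 CPM and 50.5 CPM in the Ccr2 cluster. At the finer clustering Gpr183 was uneven among macrophage-like cells. A small cluster with Cxcl2 and Ccl4, of 43 CD4-Cre and 41 F/F cells, had 96.0 CPM (57.8 to 149.9) in CD4-Cre and 93.6 CPM (54.5 to 149.9) in F/F. The Selenop and Mrc1 cluster had 27.6 CPM (16.1 to 44.2) in CD4-Cre and 36.8 CPM (26.7 to 49.6) in F/F. The Cxcl2 and Ccl4 cluster also had Mrc1 among its leading genes. Its Cyp27a1 level was 55.6 CPM (27.7 to 99.4) in CD4-Cre and 44.1 CPM (19.0 to 86.8) in F/F. A split by any UMI of Lyve1, Folr2 or Cd163, further genes of resident macrophages, gave overlapping Cyp27a1 levels, 84.0 CPM (49.8 to 133) in CD4-Cre and 68.1 CPM (47.2 to 95.2) in F/F with one and 59.4 CPM (48.8 to 71.6) and 62.4 CPM (52.9 to 73.1) without.

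The share of cells with Cyp27a1 followed depth. It was 51.7% in CD4-Cre and 48.7% in F/F among cDC1-like cells, at median depths of 14277 and 15598 UMIs, and 25.2% and 24.5% among macrophage-like cells, at 5068 and 5142 UMIs. Thinned to 1500 UMIs the shares were 8.36% (5.75 to 11.7) in CD4-Cre and 6.88% (4.20 to 10.5) in F/F for cDC1-like cells and 10.5% (7.49 to 14.2) and 10.7% (8.20 to 13.8) for macrophage-like cells. In CD4 T-like cells, taken as the background class, 0 of 1128 CD4-Cre cells and 1 of 777 F/F cells had a Cyp27a1 UMI, at median depths of 3139 and 3406 UMIs.

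**Figure D4:**
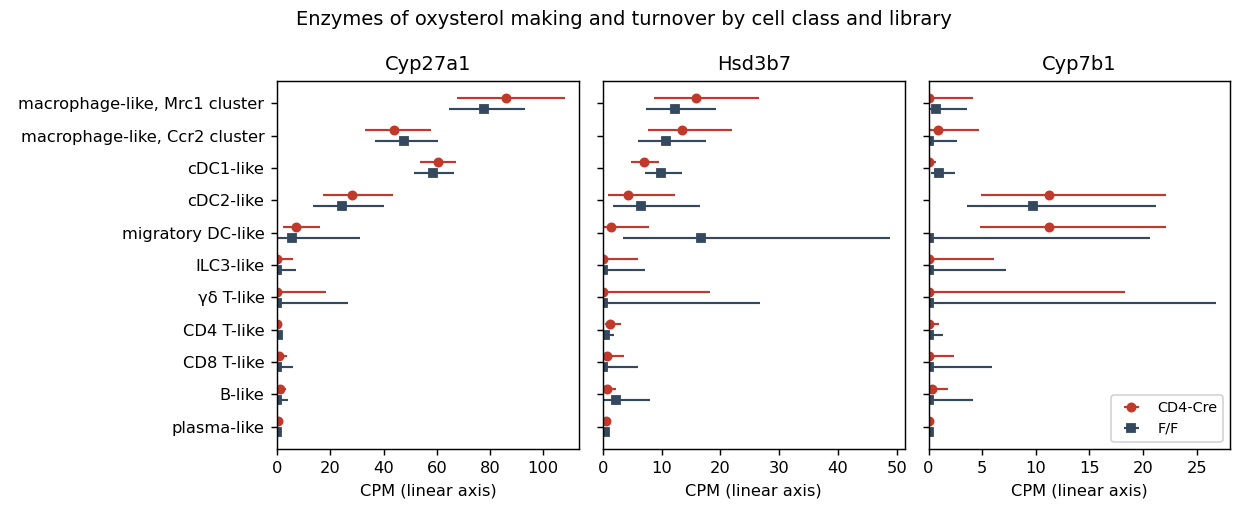
Levels of Cyp27a1, Hsd3b7 and Cyp7b1 (CPM, linear axes that differ between panels) by class, with CD4-Cre as red circles above F/F as dark squares and exact Poisson 95% intervals as lines. Among the immune classes drawn, Cyp27a1 is highest in macrophage-like and cDC1-like cells, and Cyp7b1 has most of its signal in cDC2-like and CD4-Cre migratory DC-like cells. Stromal-like cells, at 533 CPM of Cyp7b1 in CD4-Cre and 395 CPM in F/F, are off this scale and not drawn.

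In macrophage-like and cDC1-like cells the interval of the Cyp27a1 ratio between pools included 1. That ratio was 1.03 (0.867 to 1.22) for cDC1-like cells and 0.977 (0.774 to 1.23) for macrophage-like cells. In plasma-like cells it was 2.00 (1.06 to 3.90), from 28 UMIs in CD4-Cre and 17 UMIs in F/F, and was not called. The plasma-like level was 0.206 CPM in CD4-Cre and 0.103 CPM in F/F, under the free RNA levels of 3.62 CPM and 3.13 CPM over barcodes with 150 to 350 UMIs.

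Over the 17 classes and unnamed clusters with at least 50 cells in each library, the Pearson correlation of log2(CPM + 5) between Gpr183 and Cyp27a1 was 0.05 in CD4-Cre and 0.06 in F/F. Between Hsd3b7 and Cyp27a1 it was 0.89 in CD4-Cre and 0.95 in F/F. These values describe classes that share libraries, depth and free RNA. The unnamed clusters include those that join immunoglobulin RNA with macrophage or cDC1 markers, so the macrophage and cDC1 patterns each enter more than once. By the lower of the 2 libraries' correlations, among 11250 genes searched, the genes most like Gpr183 were S100a4, Zfp770 and Serpinb1a, at 0.66, 0.65 and 0.64. Those most like Hsd3b7 were Pdlim4, Cttnbp2nl and Sash1, at 0.94, 0.93 and 0.93, and those most like Cyp27a1 included Mpeg1 and Slamf8, at 0.99 and 0.98. Ch25h and Cyp7b1 had too few UMIs for this comparison.

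In single cells the counts of joint detection of Gpr183 and Cyp27a1 lay on both sides of those that independent counting would give. Among macrophage-like cells 18 CD4-Cre and 34 F/F cells had both, where 16.1 and 23.2 would be met if the genes were counted independently, and among cDC1-like cells 31 CD4-Cre and 34 F/F cells had both, against 30.5 and 28.3. The Mrc1 macrophage-like cluster had 5 such cells in CD4-Cre and 17 in F/F, against 7.39 and 12.2, and the Ccr2 cluster had 13 and 17, against 7.93 and 11.1. cDC2-like cells had 9 in CD4-Cre and 4 in F/F, against 8.39 and 6.49. Gpr183 and Hsd3b7 were met in 2 CD4-Cre and 14 F/F cDC1-like cells, against 5.54 and 7.75, so the libraries lay on opposite sides. Cells differ in depth within a class, and the part of depth in these counts was not tested.

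The other sterol hydroxylases were sparse. Of these 5 genes Cyp7a1, the first enzyme of classic bile acid synthesis, had 0 UMIs in any cell. Cyp8b1, which shapes the bile acid pool in liver, had 20 UMIs in CD4-Cre and 9 UMIs in F/F cDC1-like cells, 3.86 CPM and 2.13 CPM, and 2 CD4-Cre and 2 F/F UMIs elsewhere. Cyp39a1, a hydroxylase of brain-type oxysterols, had 102 UMIs in CD4-Cre and 117 UMIs in F/F plasma-like cells, 0.749 CPM and 0.708 CPM, and 17 UMIs in CD4-Cre and 7 UMIs in F/F B-like cells, 5.43 CPM and 7.84 CPM. Cyp11a1, which begins steroid synthesis, had 20 UMIs in CD4-Cre and 16 UMIs in F/F plasma-like cells and was absent from CD4 T-like and CD8 T-like counts. Genes of electron transfer and of later steps were more widely counted. In CD4 T-like cells Cyb5a, which encodes the electron carrier cytochrome b5, had 215 CPM in CD4-Cre and 206 CPM in F/F, a ratio of 1.04 (0.936 to 1.16). Cyb5a does not stand for its list, since the 4 electron partners had a median log2 ratio of -0.35 in this class. Scp2, a peroxisomal thiolase and sterol carrier of bile acid synthesis, had 189 CPM in CD4-Cre and 187 CPM in F/F of the same class, a ratio of 1.01 (0.903 to 1.13). Hsd11b1, which can reduce 7-keto oxysterols, had 37.5 CPM in CD4-Cre and 35.3 CPM in F/F, a ratio of 1.06 (0.815 to 1.38).

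Genes of oxysterol binding and cholesterol esterification also differed in level between classes. Nr1h3, the LXRα receptor, had 41.1 CPM in CD4-Cre and 39.0 CPM in F/F macrophage-like cells, where Cyp27a1 was high, and 0.260 CPM in CD4-Cre and 0 CPM in F/F CD4 T-like cells. Soat1, which esterifies cholesterol, had 159 CPM in CD4-Cre and 174 CPM in F/F macrophage-like cells and 38.8 CPM and 35.7 CPM in CD4 T-like cells.

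Calls over these lists are given beside the share of all genes called. None of the 10 tested oxysterol binding genes of 11 listed, and none of the 4 electron partners, was called in CD4 T-like cells, with median log2 ratios of 0.02 and -0.35, against 0.06 over all well-counted genes, where 1.53% of all genes were called higher and 1.89% lower. In CD8 T-like cells, where Gpr183 was called, 0 of 9 tested binding genes were called, with a median of 0.14 against 0.11 over all well-counted genes. Among the other chemoattractant receptors 1 of 5 tested genes was called in plasma-like cells, Ccr9, the receptor of the gut chemokine CCL25, at 34.4 CPM in CD4-Cre and 45.0 CPM in F/F, a ratio of 0.764 (0.736 to 0.792), where 6.59% of all genes were called lower. Over all kept cells 3 of 6 other chemoattractant receptors, 2 of 5 tested genes of later steps and 1 of 11 binding genes were called higher in CD4-Cre, against 11.4% of all genes, while the class makeup of the libraries also differed. With lists this small, nothing is read from these counts.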

How the data were processed

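The measurements were UMI counts per gene and barcode from 2 droplet libraries (10x Genomics, 3′ tags), deposited by the authors as unfiltered whole numbers. Cell Ranger 7.2.0 and the builds mm10 and GRCm38 are named in the submitters' processing notes; whether counting used strand or introns is not given in the sources used here. Barcodes were kept with at least 1000 UMIs, 500 genes and at most 10% mitochondrial UMIs. Cells of both libraries were clustered (scanpy 1.11.5, 2000 variable genes, 30 components, 15 neighbours, Leiden resolution 1, seed 1) without the 5 genes, Cd4, Gramd1a, genes of antigen receptors, mitochondria and ribosomes, and 74 genes whose free RNA differed over 4-fold. Names needed at least 3 detected markers; limits on single T cell transcripts were set after the data were seen. No doublet caller was used. Clusters with immunoglobulin RNA and markers of another class were kept apart and unnamed.

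CPM is UMIs per 1e6 UMIs of a class, with exact Poisson intervals; shares have exact Clopper-Pearson intervals; ratios have exact intervals of the binomial split, all at 95%. They cover counting error and treat UMIs as independent. A count of 0 allows 3 counts. The ratio intervals were run on simulated independent counts, the form that they assume, which says nothing about spread between cells or mice. Genes and lists were chosen with earlier results of these data known. Named besides the 5 genes were pathway list members with at least 20 UMIs over both libraries in the class described and the 3 genes most alike; Ubac2, Gramd1a and Il17a were added as checks after values were seen. Positions come from GENCODE M21 and promoters from RefSeq, which holds 4 of the 5 genes. Results on some items are not reported here.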

Additional observations from a re-analysis of the deposited data

Results flagged for a closer look

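The ratio of Gpr183 between the pools lay on opposite sides of 1 in the T cell classes that CD4-Cre targets. It was 2.55 in CD8 T-like cells, at 148 CPM in CD4-Cre and 58.1 CPM in F/F, and 0.810 in CD4 T-like cells, at 75.5 CPM in CD4-Cre and 93.2 CPM in F/F. The log2 ratios differed by 1.65, CD8 T-like minus CD4 T-like. The CD4 T-like ratio was not called, and with equal cluster sizes in both libraries, at the first clustering, it was 0.998. In CD8 T-like cells equal sizes were set at the finer clustering. There the ratio was 2.81 (1.93 to 4.20) before weighting and 2.36 after it. With 1 library per genotype this difference was not tested.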

How the results depend on the processing

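Of 112 alternative values of the ratios between pools, 110 stayed within the counting interval of the reported value. The ratio of Gpr183 in CD8 T-like cells stayed between 1.24 and 1.59 on the log2 scale under 10 settings, and was 2.25 without the 5 cells of each library with most Gpr183 UMIs. That removal takes a larger part of the F/F cells with a UMI. The other value that moved was Gpr183 in CD4 T-like cells with equal cluster sizes, at 0.00, reported above. The number of pairs called higher was 2 at a limit of 5% mitochondrial UMIs, where Cyp27a1 in plasma-like cells was added, and 3 at resolution 2, where Cyp27a1 and Cyp7b1 in plasma-like cells were added; all 15 stromal-like cells, with 42 Cyp7b1 UMIs, lay in plasma-like clusters there. It was 1 under the other settings, and no setting gave a pair called lower. Without the Il17a-led cluster the Gpr183 difference of CD4 T-like cells with over those without a Foxp3 UMI was 0.25 in CD4-Cre and 0.12 in F/F on the log2 scale, against -0.52 and -0.33 with it. Cyp7b1 over all kept cells was -0.02 on the log2 scale without stromal-like cells. At resolution 0.5 ILC3-like, γδ T-like and cDC2-like cells were not named, so they have no value, and cDC2-like cells were not named with free RNA genes kept among the variable genes. The step of Gpr183 from macrophage-like to ILC3-like cells was larger, up to 2.68 in CD4-Cre and 2.79 in F/F, without immunoglobulin-rich cells or genes or at resolution 2. Shares of cells moved past their intervals in 32 of 44 repeats at other depths, all in the direction of the depth. No paired analysis was possible because each genotype has 1 library, and no replicate could be left out. Depth limits Ch25h and Cyp7b1 most, at 12 and 89 UMIs.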

Other observations

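The 5 clusters that joined immunoglobulin RNA with markers of another class were kept out of the classes, and their values are given here. The macrophage and immunoglobulin cluster, with 78 CD4-Cre and 138 F/F cells, had 18.8 CPM of Cyp27a1 in CD4-Cre and 16.2 CPM in F/F. The cDC1 and immunoglobulin cluster, with 66 and 51 cells, had 25.7 CPM in CD4-Cre and 23.8 CPM in F/F. Gpr183 had 23.5 CPM in CD4-Cre and 27.2 CPM in F/F in the T and plasma cell cluster of 550 and 404 cells. The remaining clusters of this kind, with 56 CD4-Cre and 54 F/F cells and with 61 and 49 cells, had 22.8 CPM of Gpr183 in CD4-Cre and 37.0 CPM in F/F and 36.2 CPM and 47.2 CPM. The cluster of 61 and 49 cells had 0 Cyp7b1 UMIs in CD4-Cre and 3 in F/F, all in 1 cell. The unnamed cycling cells with T cell genes are a separate cluster with little immunoglobulin RNA. These cells, 95 in CD4-Cre and 79 in F/F, had 80.5 CPM of Gpr183 (65.1 to 98.4) in CD4-Cre and 40.4 CPM (29.3 to 54.5) in F/F. Their thinned shares were 4.26% (1.17 to 10.5) in CD4-Cre and 7.59% (2.84 to 15.8) in F/F, with intervals that overlapped, so these shares set no order. Without thinning, 40 of the 95 CD4-Cre cells had a Gpr183 UMI, and 66 of the 174 cells of both libraries. No direction is read from these values. Il17a levels in the cycling cells were 279.7 CPM in CD4-Cre and 89.3 CPM in F/F.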
